A study of Mus musculus with 3 samples.

Results

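The cells described here were tumour-infiltrating regulatory T cells in which neither Klrg1 nor Il10 was found, called Klrg1-Il10- regulatory cells below. They come from single-cell RNA sequencing of tumours formed in mice by MC38, a line derived from a mouse colon carcinoma. A barcode was kept with at least 500 genes, at least 1000 unique molecular identifiers (UMIs, each standing for 1 captured RNA molecule) and under 10% of UMIs from mitochondrial genes. Of the kept barcodes, those with at least 1 UMI of Cd3d, Cd3e or Cd3g, at least 1 UMI of Foxp3, and none of Cd8a, Cd8b1, Klrg1 or Il10 were chosen. This gave 567 cells of 25920 kept barcodes, with 45 cells in the homo library, 266 in the mix library and 256 in the PBS library. The levels of these rule genes therefore describe the choice and are not results.

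The tumours were collected at day 15, when treatment had run for 5 days, and were made into cell suspensions that were sorted on CD3 and loaded on a 10x Genomics 3′ kit. There were 3 libraries with 1 library a group, labelled homo, mix and PBS, and all came from CD3-sorted MC38 tumour cells. The title of the series names an interleukin-2 aimed at LAG3, but the labels do not say what mix or homo contained, and strain, age and the number of animals pooled in a library are not given in the sources used here. With 1 library a group there was no replicate and no test. Every interval below is a 95% interval for counting error alone, so differences between animals, digests or library preparations cannot be told apart from differences between treatments.

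Regulatory T cells restrain other T cells and are specified by the transcription factor Foxp3, often together with Ikzf2, which encodes Helios. In tumours many of them carry an activated programme with high CTLA-4, the interleukin-2 receptor alpha chain CD25 and TNF receptor family members such as GITR and OX40. Klrg1, a lectin-like receptor, and the cytokine interleukin-10 mark terminally differentiated effector regulatory cells, while Tcf7 and Lef1 encode factors of resting or central T cells that recirculate through lymphoid organs.

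The 3 libraries held 8461 to 10351 barcodes and 49179708 to 65336646 UMIs in all, and kept barcodes with a CD3 UMI numbered 7722 in homo, 8023 in mix and 9928 in PBS. Between 100 and 131 barcode sequences were found in 2 libraries at once, and none of these was a Klrg1-Il10- regulatory cell in both libraries. How many chosen cells shared a sequence with another kind of barcode was not determined, and no cell was left out on this ground. Summed over the chosen cells there were 169827 UMIs in homo, 995162 in mix and 865204 in PBS, so the homo values carry the widest intervals. Median depth per chosen cell was 2976 UMIs in homo, 3021 in mix and 2685 in PBS. Doublet scoring marked 0 of the chosen cells in homo, 5 in mix and 2 in PBS.

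Klrg1-Il10- regulatory cells were a smaller share of T cells in homo than in mix or PBS. They made up 0.583% of barcodes with a CD3 UMI in homo (0.425 to 0.779, exact Clopper-Pearson), 3.32% in mix (2.93 to 3.73) and 2.58% in PBS (2.28 to 2.91). The homo share was 0.226 times that of PBS and 0.176 times that of mix, and the mix share was 1.29 times that of PBS. The intervals of the 3 libraries did not overlap. With scored doublets removed, those of mix (3.08 to 3.92) and PBS (2.46 to 3.14) did overlap.

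The difference between homo and the other libraries was smaller once barcodes with a CD8 UMI were left out of the denominator, and its size then depended on the setting. Of CD3 barcodes without a CD8 UMI, the chosen cells were 12.3% in homo (9.14 to 16.1), 16.3% in mix (14.5 to 18.1) and 15.0% in PBS (13.4 to 16.8). CD3 barcodes without a CD8 UMI themselves numbered 365 of 7722 in homo, 1635 of 8023 in mix and 1703 of 9928 in PBS. The other Foxp3 cells without CD8 UMIs, those with at least 1 UMI of Klrg1 or Il10 and called Klrg1/Il10+ regulatory cells, were likewise a smaller share of CD3 barcodes in homo, at 1.02% against 6.84% in mix and 5.98% in PBS. Of CD3 barcodes without a CD8 UMI, Klrg1/Il10+ cells were 21.6% in homo, 33.6% in mix and 34.9% in PBS. Within Foxp3 cells without CD8 UMIs, the Klrg1-Il10- share was 36.3% in homo (27.8 to 45.4), 32.6% in mix (29.4 to 36.0) and 30.1% in PBS (27.0 to 33.3), and these intervals overlapped.

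A sort on CD3 fixes the denominator, so a share can be low because these cells were few or because other T cells were many, and the libraries do not tell these apart. The gate also left out CD3 barcodes with UMIs of both Foxp3 and CD8 genes, which numbered 316 in homo, 417 in mix and 466 in PBS. Doublet scoring marked 18.7% of those barcodes in homo, 47.2% in mix and 49.8% in PBS.

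**Figure D1:**
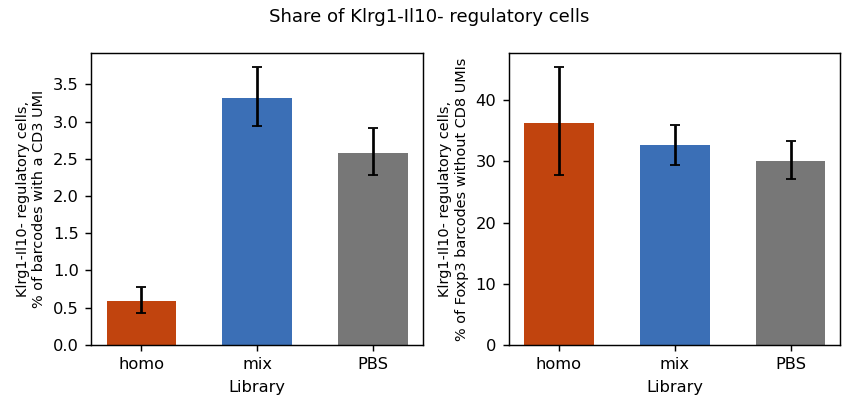
Klrg1-Il10- regulatory cells as a percent of barcodes with a CD3 UMI (left) and of Foxp3 barcodes without CD8 UMIs (right), by library. Bars are shares and error bars exact 95% Clopper-Pearson intervals of counting error; the homo share of CD3 barcodes is 0.583% against 2.58% in PBS, while the shares of Foxp3 barcodes lie between 30.1% and 36.3%.

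Absence of a UMI is not absence of a gene, and the line between the classes depends on depth. Klrg1/Il10+ regulatory cells were deeper, with a median of 3510 UMIs in homo, 3629 in mix and 3320.5 in PBS. When they were thinned at random to 2000 UMIs a cell, 7 of 71 in homo, 60 of 499 in mix and 58 of 524 in PBS would have passed the gate as Klrg1-Il10-. Just inside the gate on Foxp3, 16 cells in homo, 81 in mix and 86 in PBS held exactly 1 Foxp3 UMI, and Ikzf2, which the gate did not use, was found in 81.3% of them in homo, 81.5% in mix and 79.1% in PBS. Just outside the gate on Klrg1 and Il10, 21 cells in homo, 135 in mix and 136 in PBS held exactly 1 UMI of these genes, and Ikzf2 was found in 95.2%, 91.1% and 83.8% of them in homo, mix and PBS.

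Of the markers given for these cells, Ikzf2 went with the label and Tcf7 did not. After thinning to 2000 UMIs a cell, Ikzf2 was found in 81.1% of Klrg1-Il10- cells in homo, 80.3% in mix and 78.3% in PBS. In CD8 cells, where free RNA is one source of a UMI, the same share was 24.5% in homo, 19.3% in mix and 17.7% in PBS, with median depths of 7570, 6083 and 5516 UMIs before thinning. The unthinned shares were 88.9% in homo, 87.6% in mix and 86.7% in PBS. Its level summed over Klrg1-Il10- cells was 1201 CPM in homo (UMIs of the gene over all UMIs of the class, times 1000000), 1003 in mix and 969 in PBS.

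Tcf7 was rare in the chosen cells. It was found in 5.41% of thinned Klrg1-Il10- cells in homo (0.661 to 18.2), 2.75% in mix (1.02 to 5.89) and 3.45% in PBS (1.40 to 6.98). The unthinned shares were 6.67% in homo, 4.14% in mix and 5.08% in PBS. CD8 cells at the same depth held it in 6.15% in homo, 6.07% in mix and 4.97% in PBS, so the share in the chosen cells was not above that level in any library beyond counting error. CD4 cells without Foxp3 held Tcf7 in 30.6% of cells in homo, 31.6% in mix and 27.5% in PBS. As a population these were Foxp3 and Ikzf2 cells and not Tcf7 cells, and the few with Tcf7 are described further on.

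Ctla4, the inhibitory receptor, reached 689 CPM in homo, 1048 in mix and 1026 in PBS, and Tnfrsf18, which encodes GITR, reached 1072 CPM in homo, 1490 in mix and 1580 in PBS. Foxp3 itself, fixed by the gate, stood at 783 CPM in homo, 795 in mix and 856 in PBS. A Cd4 UMI was found in 33.3% of the chosen cells in homo, 41.4% in mix and 33.6% in PBS.

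Macrophage, NK, neutrophil and stromal genes were few in the chosen cells, while a list of CD8 and cytotoxic genes summed higher in homo. Of 15 macrophage genes, 12 were at 0 in homo, 4 in mix and 4 in PBS, with a summed level of 76.5 CPM in homo, 216 in mix and 208 in PBS and with any such UMI in 8.89% of cells in homo, 7.52% in mix and 10.5% in PBS. Of 9 NK genes, 8 were at 0 in homo, 7 in mix and 5 in PBS, and the sum was 5.89 CPM in homo, 22.1 in mix and 49.7 in PBS. Neutrophil genes summed to 11.8 CPM in homo, 15.1 in mix and 18.5 in PBS, and tumour and stromal genes to 64.8 CPM in homo, 74.4 in mix and 61.3 in PBS. A list of 19 CD8 and cytotoxic genes summed to 3256 CPM in homo, 2105 in mix and 2037 in PBS, against 14615 CPM in homo, 15420 in mix and 18300 in PBS in CD8 cells. Of the 7 of these genes that reached 50 CPM in homo or PBS, 4 were at least 1.5-fold higher in homo over PBS and 0 lower, with a median log2 ratio of 1.24, against 0.01 in Klrg1/Il10+ cells. Single cells weighed on such ratios. Without the highest cell of each library, homo over PBS was 0.78 for Gzmf, -0.007 for Prf1, 0.08 for Ctsw and -0.33 for Nkg7. For Ccl4 it was 0.97. The part of these other-cell UMIs in the differences below was not tested.

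Klrg1-Il10- regulatory cells were set against CD4 cells without Foxp3 in the same library, defined by a CD3 UMI, a Cd4 UMI and no UMI of Foxp3, Cd8a or Cd8b1. There were 70 such cells in homo, 319 in mix and 325 in PBS. UMIs were summed over a class and scaled to CPM, and genes with at least 50 CPM in either class were compared as a log2 ratio, positive where the regulatory cells were higher. A gene was counted when the ratio reached 1.5-fold, without a test. In mix and in PBS alike, 120 of 3392 genes (3.54%) were higher and 116 (3.42%) were lower in Klrg1-Il10- cells. In all 3 libraries alike it was 70 of 3163 genes (2.21%) higher and 64 (2.02%) lower.

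Of the regulatory identity list, 12 of 19 genes passed 1.5-fold upward in homo, where 19.8% of all genes did, 13 of 19 in mix, where 8.08% did, and 15 of 20 in PBS, where 8.57% did. None of the list was lower by 1.5-fold in any library. The list's median log2 ratio was 0.75 in homo, 1.03 in mix and 1.21 in PBS, against 0.06, 0.09 and 0.05 over all genes compared in homo, mix and PBS. These genes belong with Foxp3, which the gate used, and the list was chosen with results of these data known, so the counts describe the class.

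Il2ra, the alpha chain of the interleukin-2 receptor, reached 436 CPM in homo, 815 in mix and 700 in PBS in Klrg1-Il10- cells, against 265 CPM in homo, 325 in mix and 247 in PBS in CD4 cells without Foxp3. The log2 ratio was 0.72 in homo (0.23 to 1.21), 1.32 in mix (1.14 to 1.51) and 1.501 in PBS (1.28 to 1.72). Il2ra was higher in the regulatory cells of every library, but in homo the ratio was -0.14 when only cells with a Cd4 UMI were used. The beta chain Il2rb differed less, with log2 ratios of 0.08 in homo, 0.45 in mix and 0.27 in PBS, and so did the shared gamma chain Il2rg, at 0.06 in homo, 0.10 in mix and 0.12 in PBS.

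Tnfrsf4, which encodes OX40, stood at 1749 CPM in homo, 2595 in mix and 2819 in PBS in the regulatory cells, against 783 CPM in homo, 1281 in mix and 1366 in PBS in CD4 cells without Foxp3. The log2 ratio was 1.16 in homo, 1.02 in mix and 1.05 in PBS, which is a similar size in the 3 libraries. Tnfrsf9, which encodes 4-1BB, differed by 0.37 in homo (0.06 to 0.67), 1.07 in mix (0.97 to 1.18) and 1.06 in PBS (0.95 to 1.18). Tnfrsf18 differed by 0.91 in homo, 0.93 in mix and 0.73 in PBS, and Ctla4 by 0.75 in homo, 1.03 in mix and 1.19 in PBS.

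Izumo1r, which encodes folate receptor 4, had log2 ratios of 1.41 in homo, 1.15 in mix and 1.43 in PBS, and Cd81, a tetraspanin, had 2.70 in homo, 1.46 in mix and 1.79 in PBS. Itgae, the integrin chain CD103, differed by 3.87 in homo (1.81 to 7.02), 2.77 in mix (2.14 to 3.45) and 1.29 in PBS (0.73 to 1.87). Lrrc32, which encodes GARP and holds latent TGF-beta at the cell surface, had log2 ratios of 2.28 in homo, 1.69 in mix and 1.34 in PBS. Capg, an actin-capping protein, differed by 1.30 in homo, 1.10 in mix and 1.25 in PBS. Among the highest were also Ncmap, with 1.44 in homo, 1.90 in mix and 2.19 in PBS, and Rln3, which encodes the peptide relaxin-3, with 3.02 in homo, 1.52 in mix and 1.94 in PBS.

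Ikzf2 itself had a log2 ratio of 1.36 in homo (1.04 to 1.69), 1.24 in mix (1.08 to 1.40) and 1.33 in PBS (1.15 to 1.51). In CD4 cells without Foxp3 it still stood at 468 CPM in homo, 426 in mix and 386 in PBS, and thinned shares were 38.7%, 40.1% and 31.5% in homo, mix and PBS. When CD4 cells with a Klrg1 or Il10 UMI were also left out, a choice made after seeing the data, the Ikzf2 ratio was 2.56 in homo, 2.15 in mix and 2.31 in PBS. The Tnfrsf9 ratio was then 1.56 in homo, 2.36 in mix and 1.90 in PBS, and that of Il2ra 1.47 in homo, 2.47 in mix and 2.60 in PBS. All of these lay above the intervals given for the main setting. The number of genes higher in mix and in PBS was then 304 in place of 120, and lower 197 in place of 116.

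Tcf7 and Bcl2 were among the genes with the lowest ratios. Tcf7 stood at 70.7 CPM in homo, 21.1 in mix and 23.1 in PBS, against 174 CPM in homo, 330 in mix and 255 in PBS in CD4 cells without Foxp3. The log2 ratio was -1.30 in homo (-2.35 to -0.37), -3.97 in mix (-4.68 to -3.33) and -3.46 in PBS (-4.20 to -2.80). In homo the Tcf7 ratio was -0.08 in cells with a Cd4 UMI and -2.43 after thinning. Lef1, its partner factor, differed by -0.30 in homo, -1.22 in mix and -1.33 in PBS. Bcl2, which guards against apoptosis, differed by -1.89 in homo on 2 UMIs, -3.71 in mix and -3.19 in PBS.

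Of the resting and recirculation list, 8 of 16 genes were lower and 1 higher in mix (6.86% of all genes lower), and 11 of 16 were lower and 2 higher in PBS (7.14% lower). In homo 3 of 14 were lower, where 15.3% of all genes were, and 4 higher. The list's median was 0.17 in homo, -0.63 in mix and -0.89 in PBS, so homo did not share the lower level seen in mix and PBS.

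Of the list of helper lineage factors and cytokines, 4 of 9 genes were lower and 2 higher in homo, 3 of 9 lower and 1 higher in mix, and 2 of 7 lower and 1 higher in PBS, where 15.3%, 6.86% and 7.14% of all genes were lower in homo, mix and PBS. Cd40lg, by which helper T cells activate B cells and dendritic cells, had 1 UMI in homo, 14 in mix and 11 in PBS in Klrg1-Il10- cells, or 5.89 CPM in homo, 14.1 in mix and 12.7 in PBS. CD4 cells without Foxp3 stood at 109 CPM of Cd40lg in homo, 112 in mix and 78.4 in PBS, and the log2 ratio was -4.21 in homo (-9.56 to -1.62), -3.00 in mix and -2.62 in PBS. Ifng, the effector cytokine, differed by -4.92 in homo (-10.25 to -2.37, on 1 UMI), -2.14 in mix and -1.39 in PBS. Ramp3, Serpinb1a and Igfbp4 had 0 UMIs in the homo regulatory cells, and Ramp3, a receptor accessory protein, differed by -4.02 in mix and -3.90 in PBS, with -5.45 in mix once scored doublets were left out.

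**Figure D2:**
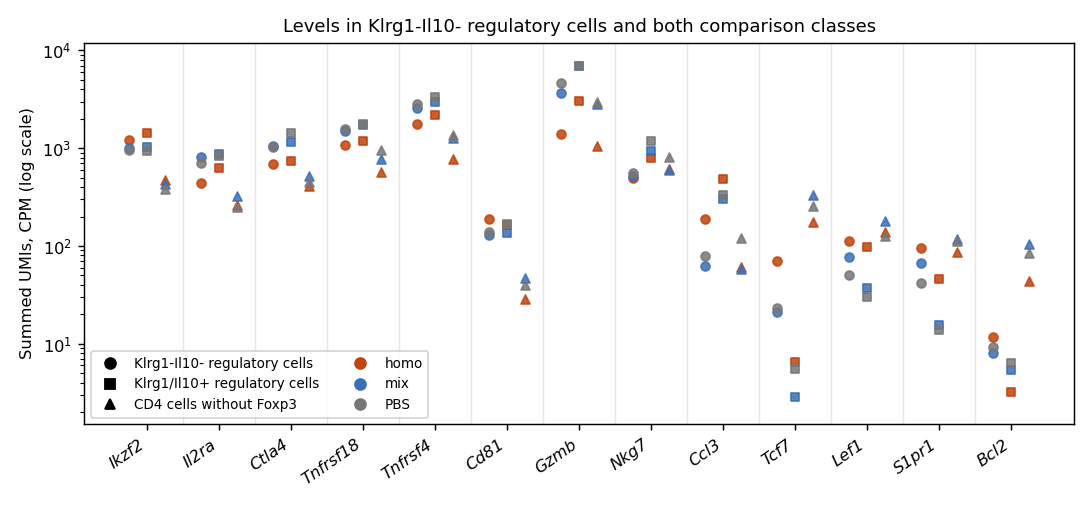
CPM of summed UMIs (log scale) for 13 genes in Klrg1-Il10- regulatory cells (circles), Klrg1/Il10+ regulatory cells (squares) and CD4 cells without Foxp3 (triangles), coloured by library. Ikzf2, Il2ra, Ctla4, Tnfrsf18, Tnfrsf4 and Cd81 lie higher in the circles than in the triangles of the same library and Tcf7 and Bcl2 lower, while Gzmb, Nkg7 and Ccl3 lie higher in the squares than in the circles.

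Against Klrg1/Il10+ regulatory cells, few genes passed 1.5-fold in mix and PBS and more did in homo, where UMIs were fewest. At least 1.5-fold in mix and in PBS alike, 22 of 3343 genes (0.658%) were higher and 18 (0.538%) lower in Klrg1-Il10- cells. In all 3 libraries 5 of 3167 genes (0.158%) were higher and 9 (0.284%) lower. In single libraries, 2.43% of genes were higher and 2.09% lower in mix, and 2.73% higher and 2.04% lower in PBS. In homo alone 526 of 3848 genes (13.7%) were higher and 639 (16.6%) lower. The homo ratios rest on 169827 UMIs in the chosen cells and 308337 in Klrg1/Il10+ cells, and the part of this low depth in the homo counts was not tested. Ikzf2 had a log2 ratio of -0.27 in homo, -0.04 in mix and 0.06 in PBS, and Il2ra had -0.54 in homo, -0.11 in mix and -0.24 in PBS. Of the regulatory identity list, 4 of 20 genes were higher and 4 lower in homo, where 13.7% of all genes were higher and 16.6% lower. In mix 1 of 19 was higher and 1 lower, where 2.43% of all genes were higher and 2.09% lower. In PBS 2 of 20 were higher and 0 lower, where 2.73% of all genes were higher and 2.04% lower. Of the activated and tumour regulatory list, 9 of 21 genes were lower and 2 higher in homo (16.6% of all genes lower), 1 of 21 lower and 2 higher in mix (2.09% lower), and 2 of 20 lower and 0 higher in PBS (2.04% lower).

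Gzmb, which encodes granzyme B, stood at 1401 CPM in homo, 3710 in mix and 4680 in PBS, against 3032 CPM in homo, 6959 in mix and 6849 in PBS in Klrg1/Il10+ cells. The log2 ratio was -1.11 in homo (-1.32 to -0.91), -0.91 in mix (-0.96 to -0.86) and -0.55 in PBS (-0.60 to -0.50). Nkg7, a cytotoxic granule protein, differed by -0.67 in homo, -0.85 in mix and -1.06 in PBS, and Cst7, a protease inhibitor of such granules, by -0.56 in homo, -0.58 in mix and -0.63 in PBS. Of these 3 genes, Nkg7 passed 1.5-fold in all 3 libraries, Gzmb in homo and mix, and Cst7 in PBS.

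The chemokine Ccl3 was among the lowest, at 188 CPM in homo, 62.3 in mix and 79.8 in PBS, against 483 CPM in homo, 299 in mix and 330 in PBS, with log2 ratios of -1.36 in homo, -2.26 in mix and -2.05 in PBS. Ccl4, its neighbour in function, differed by -0.74 in homo, -1.16 in mix and -2.58 in PBS, but its homo ratio was 1.75 when only cells with a Cd4 UMI were used. Cxcr6, a chemokine receptor of tissue-resident T cells, differed by -0.69 in homo, -1.27 in mix and -1.01 in PBS. Lag3, the inhibitory receptor that binds MHC class II, stood at 342 CPM in homo, 384 in mix and 409 in PBS, against 623 CPM in homo, 673 in mix and 676 in PBS, a log2 ratio of -0.87 in homo, -0.81 in mix and -0.72 in PBS. With a Cd4 UMI required, the direction held but the size moved for Ccl3 in mix, to -1.62, for Cxcr6 in homo, to -2.60, and for Lag3 in PBS, to -1.63.

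Emb, Itgb1, Nt5e and Gpr183 were among the highest in mix and PBS. Emb, an adhesion glycoprotein, had log2 ratios of 1.67 in mix (1.29 to 2.05) and 1.52 in PBS (1.13 to 1.90), but -0.02 in homo (-0.78 to 0.71). Itgb1, the beta-1 integrin chain, had 0.38 in homo, 1.01 in mix and 1.09 in PBS, and Nt5e, the ecto-enzyme CD73 that makes adenosine, had 1.04 in homo, 0.82 in mix and 0.78 in PBS. Gpr183, an oxysterol receptor that guides lymphocyte position, differed by -0.60 in homo on 4 UMIs, 0.99 in mix and 0.82 in PBS, and its mix ratio was 0.25 after thinning to 2000 UMIs, where that of Emb was 1.06. In homo cells with a Cd4 UMI the ratio of Itgb1 was -0.72 and that of Nt5e 0.15.

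Lef1 had log2 ratios of 0.20 in homo, 1.05 in mix and 0.75 in PBS against Klrg1/Il10+ cells. Klf2, a factor that keeps recirculation receptors on, had -0.18 in homo, 0.53 in mix and 0.64 in PBS, and passed 1.5-fold in PBS alone. Both homo intervals spanned 0. Ccr7, a lymph node homing receptor, had 1.67 in homo on 7 UMIs, 2.70 in mix (2.24 to 3.19) and 0.05 in PBS (-0.43 to 0.50), where it was 1.29 after thinning and -0.78 in cells with a Cd4 UMI. Tcf7, below the 50 CPM limit in mix and PBS, stood at 6.49 CPM in homo, 2.87 in mix and 5.56 in PBS in Klrg1/Il10+ cells, all under its level in Klrg1-Il10- cells. These levels rest on few UMIs, and without the highest homo cell Tcf7 stood at 25.7 CPM in the Klrg1-Il10- cells of homo. Of the resting list, 4 of 12 genes were higher and 1 lower in homo (13.7% of all genes higher), 6 of 12 higher and 0 lower in mix (2.43% higher), and 4 of 10 higher and 0 lower in PBS (2.73% higher). The resting list's mix median of 0.58 was 0.14 after thinning, and the PBS median of 0.20 was -0.22 in cells with a Cd4 UMI.

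Between homo and PBS, the interferon-stimulated genes of the chosen cells were lower in homo. At least 1.5-fold, 524 of 3794 genes (13.8%) were higher and 591 (15.6%) lower in homo, and with 45 homo cells many of these ratios rest on few UMIs. Of 36 interferon-stimulated genes listed, 34 reached the CPM minimum and were compared, and 27 of these were lower in homo and 0 higher. The median log2 ratio was -1.11, against 0.01 over all genes, and it ran from -1.12 to -0.84 over the other settings tried. The 15 homo cells with a Cd4 UMI gave the value of -0.84.

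Isg15, which encodes a ubiquitin-like protein attached to other proteins under interferon, stood at 412 CPM in homo, 1690 in mix and 1764 in PBS. It was found in 20 of 45 cells in homo, 201 of 266 in mix and 200 of 256 in PBS, and the log2 ratio of homo over PBS was -2.10 (-2.46 to -1.75). Irf7, the factor that amplifies interferon production, stood at 241 CPM in homo, 947 in mix and 1007 in PBS, with a ratio of -2.06 (-2.55 to -1.61). Both genes were low in homo alone, with mix next to PBS.

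Usp18, which removes Isg15 from proteins, stood at 58.9 CPM in homo, 296 in mix and 297 in PBS, a log2 ratio of -2.33 (-3.41 to -1.43) that was -1.16 in cells with a Cd4 UMI and -3.20 without the highest cell of each library. Bst2, the membrane tether of budding viruses, stood at 606 CPM in homo, 1409 in mix and 1362 in PBS, a ratio of -1.17 (-1.47 to -0.88). Ifi27l2a, a mitochondrial membrane protein gene, was the most abundant of the list at 6660 CPM in homo, 13744 in mix and 14605 in PBS, a ratio of -1.13 (-1.22 to -1.04). This gene alone gave 51.0% of the list's UMIs in homo, 50.3% in mix and 52.6% in PBS, and without it the list summed to 6407 CPM in homo, 13576 in mix and 13182 in PBS.

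Ifit3, which binds to viral RNA complexes, stood at 259 CPM in homo, 573 in mix and 511 in PBS, a log2 ratio of -0.98 (-1.46 to -0.53). It was -0.08 in cells with a Cd4 UMI and -1.60 without the highest cell of each library. Rsad2, the antiviral enzyme viperin, stood at 64.8 CPM in homo on 11 UMIs, 158 in mix and 148 in PBS, a log2 ratio of -1.19 (-2.23 to -0.30) that was -2.20 without the highest cell of each library. Ifi27l2a, Ifit3 and Rsad2 were chosen for naming after their values were seen.

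The difference was seen cell by cell. In cells thinned to 2000 UMIs, the list's UMIs per cell had a lowest value of 5, a median of 18 and a highest of 140 in homo (37 cells), 3, 55 and 217 in mix (218 cells), and 4, 56 and 187 in PBS (203 cells). The middle part of the cells, between the quartiles, lay between 12 and 39 in homo, 34 and 77 in mix and 34 and 85 in PBS, so the groups overlapped and homo still held cells at the upper level. In Klrg1/Il10+ regulatory cells the medians were 34 in homo, 60 in mix and 58 in PBS. In CD4 cells without Foxp3 they were 14 in homo, 41 in mix and 42 in PBS, and in CD8 cells 16 in homo, 26 in mix and 22 in PBS.

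The lower level in homo was thus not particular to the chosen cells. Over the same list, the median log2 ratio of homo over PBS was -0.51 in Klrg1/Il10+ regulatory cells, -1.51 in CD4 cells without Foxp3 and -0.39 in CD8 cells. In mix and PBS the chosen cells held more of these UMIs per cell than CD8 cells did.

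**Figure D3:**
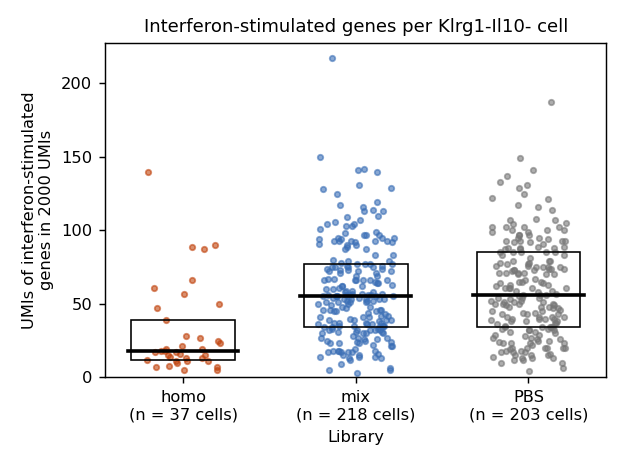
UMIs of interferon-stimulated genes per Klrg1-Il10- regulatory cell after thinning to 2000 UMIs, by library. Points are cells, thick lines medians (18 in homo, 55 in mix, 56 in PBS) and boxes the quartiles; most homo cells lie below the lower quartile of the other libraries.

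The promoters of 3 of these genes are shown because they hold the interferon-stimulated response element, the sequence to which interferon-activated factors bind. It was searched as GAAANNGAAA and its reverse complement TTTCNNTTTC in RefSeq promoter windows of mouse build GRCm38.p6, from 250 bases before to 50 bases after each gene's start. Among the 29 list genes of 36 that had a window, 17 held at least 1 match (58.6%), against 1079 of 27025 genes overall (3.99%). Each sequence below covers the last 160 bases before the start, read 5′ to 3′ on the gene's strand, with matches in capitals. Isg15 lies at chr4:156200819-156200978 on the minus strand and has 3 matches that overlap, Ifit3 at chr19:34583369-34583528 on the plus strand with 2 matches, and Rsad2 at chr12:26456453-26456612 on the minus strand with 1 match. A match is a description of the sequence and not evidence of binding in these cells.
Isg15: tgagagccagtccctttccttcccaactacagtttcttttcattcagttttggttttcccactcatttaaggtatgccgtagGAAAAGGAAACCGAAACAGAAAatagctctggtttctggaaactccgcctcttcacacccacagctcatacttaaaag
Ifit3: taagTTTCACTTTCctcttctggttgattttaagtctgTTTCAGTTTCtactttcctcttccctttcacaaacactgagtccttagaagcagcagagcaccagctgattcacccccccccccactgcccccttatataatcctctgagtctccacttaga
Rsad2: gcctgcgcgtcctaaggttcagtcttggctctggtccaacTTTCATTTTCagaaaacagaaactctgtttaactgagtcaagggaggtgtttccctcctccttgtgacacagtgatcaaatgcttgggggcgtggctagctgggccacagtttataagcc

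Of 21 activated and tumour regulatory genes compared, 9 were lower in homo than in PBS and 1 higher, against 15.6% lower and 13.8% higher over all genes, with a median log2 ratio of -0.55 that was -0.23 by the mean of per-cell CPM and -0.29 after thinning. Gzmb had a log2 ratio of -1.74 (-1.93 to -1.55) and Tnfrsf9 of -1.10 (-1.34 to -0.87), at 954 CPM in homo, 2079 in mix and 2048 in PBS. Tnfrsf4 had -0.69 and Il2ra -0.68, while Ctla4 at -0.58 and Tnfrsf18 at -0.56 did not pass 1.5-fold. Maf, a factor of effector regulatory cells, had -1.16, at 183 CPM in homo, 354 in mix and 409 in PBS. With a Cd4 UMI required the Ctla4 ratio was -1.45. Tnfrsf4 and Tnfrsf18 were chosen for naming after their values were seen. The lower level of the list in homo was not particular to the chosen cells. Of the same 21 genes, 10 were lower and 2 higher in CD8 cells, with a median of -0.53. Klrg1/Il10+ cells had 7 lower and 1 higher (median -0.21), and CD4 cells without Foxp3 had 6 lower and 1 higher (median -0.24).

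Of 18 immediate early genes, which cells switch on within minutes of a signal, 9 were lower in homo and 0 higher, against 15.6% lower over all genes, with a median of -0.59. CD8 cells had 10 of the 18 lower, with a median of -0.71, and Klrg1/Il10+ cells 2, with a median of -0.06. Dusp1, a phosphatase that damps MAP kinase signals, stood at 277 CPM in homo, 951 in mix and 1009 in PBS, a log2 ratio of -1.87 (-2.32 to -1.44). Fos, a subunit of AP-1, stood at 135 CPM in homo, 311 in mix and 413 in PBS, a ratio of -1.61 (-2.28 to -0.999). Hspa1b, a stress-induced chaperone, had 1 UMI in homo, 98 in mix and 81 in PBS, a ratio of -3.99 (-9.31 to -1.47). Hspa1a was counted as a separate gene, and any reads shared by both cannot be told apart.

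Il2rb stood at 524 CPM in homo, 650 in mix and 702 in PBS, a log2 ratio of homo over PBS of -0.42 (-0.76 to -0.10), and Il2rg at 883 CPM in homo, 1018 in mix and 993 in PBS, a ratio of -0.17 (-0.43 to 0.08). Lag3 was found in 48.9% of cells in homo, 42.5% in mix and 43.0% in PBS, with a ratio of homo over PBS of -0.26 (-0.69 to 0.14) and of mix over PBS of -0.09 (-0.30 to 0.12). With a Cd4 UMI required these were 0.63 for homo and 1.01 for mix, so no direction is given for Lag3. Of a list of 21 genes of the interleukin-2 receptor and STAT5 pathway, 5 were lower and 2 higher in homo, with a median of -0.08, against 15.6% lower and 13.8% higher over all genes. The intervals of Il2rg and Lag3 spanned 0.

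Against 15.6% lower and 13.8% higher over all genes, further lists gave the following. Of 15 glycolysis genes 6 were lower in homo and 1 higher, with a median of -0.58, while of 28 respiratory chain genes 1 was lower and 0 higher, with a median of 0.08. Of 29 interferon-gamma GTPase and class I presentation genes 7 were lower and 0 higher, with a median of -0.34. Among the GTPases of that list, Gbp6 had -1.14 (-1.72 to -0.60) and Gbp2 0.47 (-0.13 to 1.04). Mki67 had -0.32 (-1.25 to 0.50), which was 0.69 after thinning, 0.28 by the mean of per-cell CPM and -1.42 without the highest cell of each library. Other classes had lower genes in homo too. Of the 15 glycolysis genes, 11 were lower in Klrg1/Il10+ cells (median -0.83), 7 in CD8 cells (-0.57) and 3 in CD4 cells without Foxp3 (-0.22). Of the 29 GTPase and class I genes, it was 2 in Klrg1/Il10+ cells (-0.09), 3 in CD8 cells (-0.29) and 16 in CD4 cells without Foxp3 (-0.75). In Klrg1/Il10+ cells 1 gene of each list was higher.

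Penk, which encodes the opioid precursor proenkephalin, stood at 53.0 CPM in homo, 164 in mix and 407 in PBS, and was found in 2 of 45 cells in homo, 26 of 266 in mix and 38 of 256 in PBS. Its log2 ratio of homo over PBS was -2.94 (-4.08 to -1.999), with -1.99 in cells with a Cd4 UMI and -4.80 without the highest cell of each library. Cish, a feedback inhibitor of cytokine signals through STAT5, stood at 124 CPM in homo, 316 in mix and 297 in PBS, a ratio of -1.26. Rgs1, a brake on chemokine receptors, had -1.54 and Cd74, the MHC class II invariant chain, -1.65, which was -2.29 in cells with a Cd4 UMI.

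Of 14 resting and recirculation genes, 7 were higher in homo and 3 lower, with a median of 0.50, against 13.8% higher and 15.6% lower over all genes. Klrg1/Il10+ cells had 6 of the 14 higher and 2 lower. The list's UMIs per thinned chosen cell averaged 5.51 in homo, 5.28 in mix and 5.35 in PBS. Lef1 stood at 112 CPM in homo, 77.4 in mix and 50.9 in PBS, a log2 ratio of 1.14 (0.28 to 1.94), and S1pr1, the receptor for exit from lymphoid tissue, at 94.2 CPM in homo, 67.3 in mix and 41.6 in PBS, a ratio of 1.18 (0.23 to 2.07). Tcf7 had a ratio of 1.61 (0.45 to 2.71), but 8 of its 12 homo UMIs lay in 1 cell and the ratio was 0.66 without the highest cell of each library. Klf2 had -0.72 and Ccr7 -0.60 on 7 homo UMIs.

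Among the highest single genes, Csrp2, a LIM domain protein, stood at 100 CPM in homo, 30.1 in mix and 13.9 in PBS and was found in 11 of 45 homo cells, a log2 ratio of 2.85 (1.70 to 4.05) that was 1.94 in cells with a Cd4 UMI and 3.46 after thinning. Arhgef18 stood at 165 CPM in homo, 27.1 in mix and 40.5 in PBS and was found in 19 of 45 homo cells, a ratio of 2.03 (1.26 to 2.79). Itga4, the alpha-4 integrin chain, stood at 130 CPM in homo, 31.2 in mix and 32.4 in PBS and was found in 15 of 45 homo cells, a ratio of 2.001 (1.13 to 2.86). These 3 were spread over cells.

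Other high genes were not spread. Gzmf had 20 of its 24 homo UMIs in 1 cell, and its log2 ratio of 3.13 was 0.78 without the highest cell of each library. Ltf had all 21 of its homo UMIs in 1 cell, and Hist1h2ap all 10. No statement about the homo cells as a group is drawn from these 3 genes.

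Between mix and PBS, the chosen cells were close. At least 1.5-fold, 78 of 3567 genes (2.19%) were higher and 74 (2.07%) lower in mix. None of the 34 interferon-stimulated genes compared was 1.5-fold higher or lower, and their median log2 ratio was 0.03. Isg15 had a ratio of -0.06 (-0.16 to 0.04), Ctla4 0.03 (-0.10 to 0.16), Ikzf2 0.05 (-0.08 to 0.18) and Tnfrsf4 -0.12 (-0.20 to -0.04). Il2ra stood at 815 CPM in mix and 700 in PBS, a ratio of 0.22 (0.06 to 0.37).

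Of 9 mitosis genes compared, 5 were lower in mix and 0 higher, against 2.07% lower over all genes, with a median log2 ratio of -0.87 that was -0.19 by the mean of per-cell CPM and -0.38 after thinning. Mki67, which encodes the proliferation antigen Ki-67, stood at 44.2 CPM in mix and 103 in PBS, a ratio of -1.22 (-1.77 to -0.68), but was found in 17 of 266 cells in mix and 21 of 256 in PBS. Ube2c, which drives exit from mitosis, stood at 50.2 CPM in mix and 170 in PBS, a ratio of -1.76 (-2.25 to -1.29), and was found in 13 cells in mix and 16 in PBS. The levels therefore rest on few cells, and the share of cells with these genes differed little. The mitosis list's median of mix over PBS was -0.15 in Klrg1/Il10+ regulatory cells, 0.33 in CD4 cells without Foxp3 and -0.12 in CD8 cells.

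Ccr7, the receptor that guides T cells to lymph nodes, ranked highest in mix over PBS by the interval end nearest 0. It stood at 142 CPM in mix and 62.4 in PBS, a log2 ratio of 1.18 (0.72 to 1.66). It was found in 26 of 266 cells in mix and 14 of 256 in PBS, and the ratio was 1.31 without the highest cell of each library. Lef1 had a ratio of 0.61 in the same direction, but -0.38 in cells with a Cd4 UMI. Penk was lower in mix, at 164 CPM in mix and 407 in PBS, a ratio of -1.31 (-1.59 to -1.04) that was -1.99 in cells with a Cd4 UMI and -1.93 after thinning. Spp1 had 111 of its 133 mix UMIs in 1 cell, and its ratio of 1.02 was -0.26 without the highest cell of each library.

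**Figure D4:**
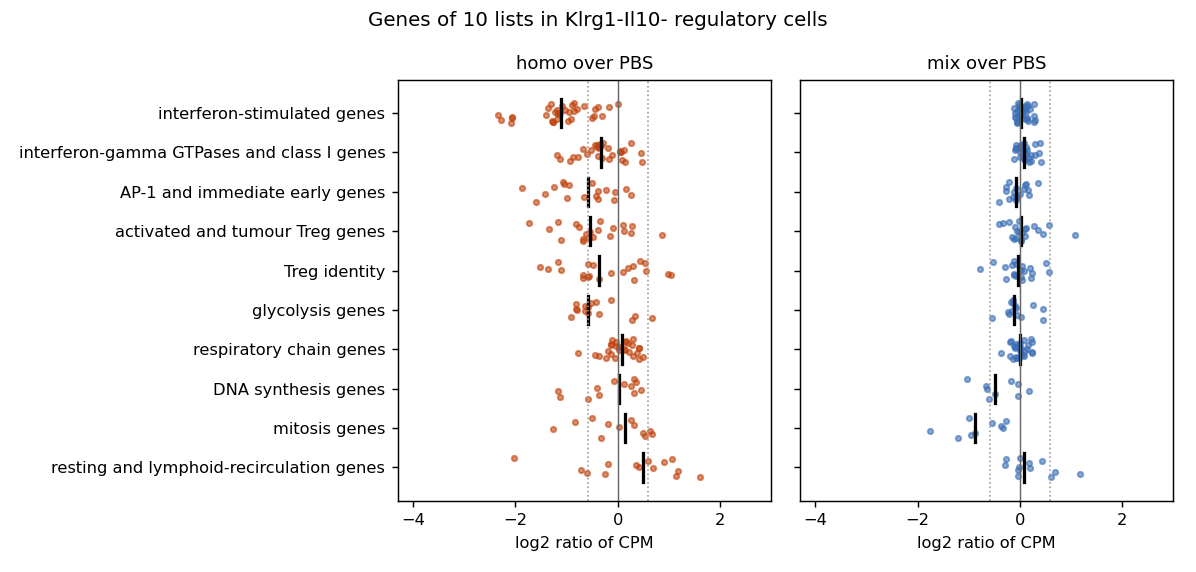
Log2 ratio of CPM in Klrg1-Il10- regulatory cells for the genes compared in 10 lists, homo over PBS (left) and mix over PBS (right). Points are genes, black bars list medians and dotted lines 1.5-fold; the interferon-stimulated list lies at a median of -1.11 on the left and 0.03 on the right, and the mitosis list at 0.14 on the left and -0.87 on the right.

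Homo was also set against mix, with libraries that both other comparisons share. At least 1.5-fold, 531 of 3806 genes (14.0%) were higher and 575 (15.1%) lower in homo. Of 34 interferon-stimulated genes, 30 were lower in homo and 0 higher, with a median log2 ratio of -1.16. Isg15 had -2.04 (-2.40 to -1.69) and Irf7 -1.97 (-2.46 to -1.52). Gapdh, the glycolytic enzyme, stood at 942 CPM in homo and 2262 in mix, a ratio of -1.26 (-1.50 to -1.03), and in PBS it stood at 1657 CPM. Of the mitosis list 6 of 12 genes were higher in homo, but 1 homo cell held 27 of 27 UMIs of Birc5 and 9 of 14 of Mki67.

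The chosen cells varied among themselves, and the few with Tcf7 differed from the rest. A Tcf7 UMI was found in 27 of 567 cells, 3 in homo, 11 in mix and 13 in PBS. After thinning to 2000 UMIs, 15 of 458 cells held one, 2 in homo, 6 in mix and 7 in PBS. Shares below are over these thinned cells of the 3 libraries together and are descriptions, since cells are not replicates.

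Lef1 was found in 46.7% of cells with Tcf7 (21.3 to 73.4) and 10.4% of cells without (7.70 to 13.6). S1pr1 was found in 40.0% with Tcf7 and 6.77% without, and Ccr7 in 26.7% with Tcf7 and 5.42% without. Before thinning, Lef1 was found in 70.4% of 27 cells with Tcf7 and 15.9% of 540 without, and S1pr1 in 40.7% with Tcf7 and 10.7% without. Most cells with these genes held no Tcf7, namely 46 with Lef1, 30 with S1pr1 and 24 with Ccr7 in the 443 thinned cells without it. S1pr1 was found in 1 of 28 cells with Ccr7 and 8.14% of cells without. Before thinning it was found in 16.3% of 43 cells with Ccr7 and 11.8% of 524 without, so no direction is given for this pair.

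Tnfrsf9 was found in 33.3% of cells with Tcf7 (11.8 to 61.6) and 84.9% of cells without (81.2 to 88.1), and Gzmb in 33.3% with Tcf7 and 77.9% without. Il2ra was found in 26.7% with Tcf7 and 65.9% without. Ctla4 was found in 33.3% with Tcf7 and 61.9% without after thinning, but in 81.5% with Tcf7 and 66.9% without before it, so no direction is given for Ctla4. Ikzf2 was found in 66.7% with Tcf7 (38.4 to 88.2) and 79.9% without (75.9 to 83.5), so these intervals overlapped. Before thinning, Tnfrsf9 was found in 48.1% with Tcf7 and 90.2% without, and Gzmb in 25.9% with Tcf7 and 83.0% without.

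By summed UMIs, Klf2 was higher in cells with Tcf7, with log2 ratios of 2.14 in mix (1.51 to 2.72) and 1.38 in PBS (0.70 to 2.001). Gzmb was lower, with -3.39 in mix and -4.66 in PBS. Fos had 2.37 in mix and 1.88 in PBS. In homo only 2 thinned cells held Tcf7, and no direction is given for them.

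**Figure D5:**
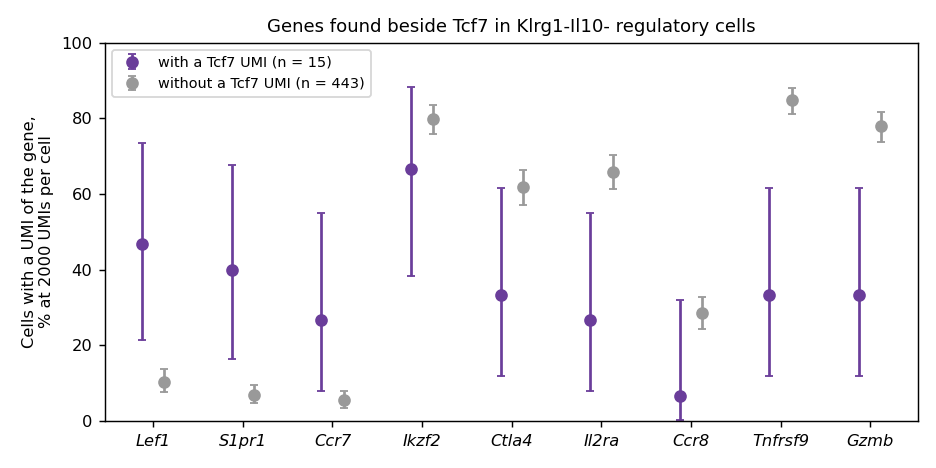
Percent of Klrg1-Il10- regulatory cells with a UMI of each gene at 2000 UMIs per cell, for 15 cells with a Tcf7 UMI and 443 without, over the 3 libraries. Error bars are exact 95% Clopper-Pearson intervals of counting error; Lef1, S1pr1 and Ccr7 lie higher and Il2ra, Tnfrsf9 and Gzmb lower in cells with Tcf7.

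Ccr8, a chemokine receptor of tumour regulatory cells, marked a larger group, 127 of 458 thinned cells. Tnfrsf9 was found in 95.3% of cells with Ccr8 and 78.5% of cells without, and Il2ra in 79.5% with Ccr8 and 58.9% without. Lef1 was found in 4.72% with Ccr8 and 14.2% without, and S1pr1 in 2.36% with Ccr8 and 9.97% without. Of the 127 cells with Ccr8, 1 held Tcf7.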

How the data were processed

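The deposited files hold raw UMI counts by gene and barcode, and per the file headers the authors' software was Cell Ranger 7.1.0. Version 2.1.1 of Cell Ranger, build mm39 and Seurat 4.1.0 are listed in the submitters' processing notes. Each file holds 32285 genes. The chosen cells and gene lists were set with earlier results of these data known.

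UMIs were summed over a class within a library and scaled to CPM with all genes. Genes with at least 50 CPM in either group were compared, and 1.5-fold was the limit for counting them, leaving out rule genes. Intervals on ratios are exact conditional binomial, those on shares exact Clopper-Pearson, both at 95%. They cover counting error only, and UMIs shared by near-identical genes cannot be told apart. CD8 cells are CD3 barcodes with UMIs of both Cd8a and Cd8b1. Where stated, cells were thinned to 2000 UMIs and shallower cells left out, which kept 37 of 45 chosen cells in homo, 218 of 266 in mix and 203 of 256 in PBS. Scrublet in scanpy 1.11.5 scored doublets per library, the highest scores being marked at 0.8% per 1000 barcodes, and marked barcodes were kept.

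Genes named between libraries are the 10 highest and 10 lowest by the interval end nearest 0. Against the other classes they are the 10 highest and 10 lowest that kept 1 direction in mix and PBS, and 5 each way between chosen cells with and without Tcf7. Up to 4 members of each list and a fixed set of regulatory genes were added, and receptor, mitochondrial, ribosomal, haemoglobin and sex-linked genes and unnamed models were left out. S1pr1 against CD4 cells, Isg15 and Tnfrsf4 between mix and PBS, and genes set beside Ccr8 were chosen after their values were seen. The work ran in Python 3.11.15 (scipy 1.17.1, pandas 2.3.3, numpy 2.4.6), and the counting steps were tested on simulated data. Some genes of the fixed set and lists are not reported here.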

Additional observations from a re-analysis of the deposited data

How the results depend on the processing

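Counts of genes in this order are homo over PBS, mix over PBS, homo over mix, Klrg1-Il10- over CD4 cells without Foxp3, and Klrg1-Il10- over Klrg1/Il10+ regulatory cells. With no CPM minimum they were 2608, 2718, 2610, 875 and 704 higher and 4822, 2629, 4900, 1173 and 973 lower. With a minimum of 100 CPM they were 206, 16, 195, 69 and 5 higher and 261, 17, 251, 54 and 10 lower. At 2-fold they were 178, 8, 171, 30 and 4 higher and 220, 13, 226, 53 and 4 lower.
With a Cd4 UMI required, between libraries they were 982, 269 and 998 higher and 990, 306 and 948 lower, and 34 were lower than in Klrg1/Il10+ cells. The share of CD3 barcodes was then 0.194% in homo, 1.37% in mix and 0.866% in PBS, and the share of Foxp3 barcodes 27.2% in mix and 22.4% in PBS.
After thinning to 2000 UMIs, homo had 980 genes higher over PBS and 985 over mix, and 246 were higher and 209 lower in mix over PBS. Gating after thinning gave a share of Foxp3 barcodes of 41.6% in mix and 39.0% in PBS. By the mean of per-cell CPM, 124 genes were higher in mix over PBS. Leaving out CD4 cells with Klrg1 or Il10, chosen after seeing the data, gave 304 genes higher and 197 lower. The cause of these shifts was not tested, beyond the number of genes or cells that each setting leaves.
The direction turned for 9 values of single-gene ratios that had passed 1.5-fold. It also turned for 53 values of ratios under 1.5-fold, among them Lag3 and Mki67 in homo over PBS, Lag3 in mix over PBS and Itgb1 and Irf8 in homo against Klrg1/Il10+ cells. Of the 9, with a Cd4 UMI required it was 0.033 for Mt1 and -0.38 for Lef1 in mix over PBS, -0.14 for Il2ra and 0.0886 for Mki67 against CD4 cells in homo, and 1.75 for Ccl4 against Klrg1/Il10+ cells in homo. After thinning it was 0.20 for Ifitm1 and 0.0667 for Mki67 against CD4 cells in homo, and, against Klrg1/Il10+ cells, 0.20 for Gpr183 in homo and -0.068 for Mki67 in PBS.
Leaving out scored doublets, centring on the median gene and a 5% mitochondrial limit moved no count of genes by over 1.5 times and no share beyond its interval. Depth limits homo, where 1 UMI stands for 5.89 CPM. No paired analysis was possible because each group has 1 library.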

Other observations

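Ighm, the heavy chain gene of immunoglobulin M, was found in 55.6% of Klrg1-Il10- regulatory cells in homo, 51.9% in mix and 47.3% in PBS. Its level was 406 CPM in homo, 413 in mix and 318 in PBS. In Klrg1/Il10+ regulatory cells it was 402 CPM in homo, 220 in mix and 219 in PBS, and in CD4 cells without Foxp3 127 CPM in homo, 156 in mix and 106 in PBS. CD8 cells stood at 21.4 CPM in homo, 29.7 in mix and 22.6 in PBS. Most UMIs of a list of 9 B and plasma cell genes were from Ighm, with a list sum in the chosen cells of 453 CPM in homo, 487 in mix and 369 in PBS, and 6 of the 9 genes were at 0 in homo, 5 in mix and 6 in PBS. Ighm was named after its values were seen, and whether the transcript comes from the regulatory cells themselves was not tested.

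Of 10 dendritic cell genes, 7 were at 0 in the chosen cells in homo, 8 in mix and 7 in PBS. The list's sum was 618 CPM in homo, 1415 in mix and 1373 in PBS, mostly from Bst2, which is also an interferon-stimulated gene.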
